A study of Mus musculus with 6 samples.

Results

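Polycomb repressive complex 1 (PRC1) was followed through 10 of its genes in mammary fat pads of mice with and without Pxmp2, a channel protein of the peroxisomal membrane. The genes are Pcgf1, Pcgf2, Pcgf3, Pcgf5, Pcgf6, Bmi1, Ring1, Rnf2, Rybp and Cbx7. They were taken up because a bright probe set of Pcgf5 was lower on the Pxmp2-/- arrays. That difference is therefore a description here, and no test is given on any of the 10 genes for the comparison of genotypes. A probe set, a group of short probes read as 1 value, counted if the platform annotation gave it exactly 1 gene symbol and that symbol was one of the 10. This found 23 probe sets among 45037, and they covered 9 of the 10 genes. Rybp had no such probe set, because its 2 probe sets are also assigned to the pseudogene Rybp-ps, and it is not described.

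The study compared 3 wild-type (WT) with 3 Pxmp2-/- female mice of the C57BL/6J background. All 6 mice, WT controls included, were ovariectomized at 21 days of age, received estradiol at 31 days and were killed 8 h later, which set a common start of puberty. Each mouse gave 1 Affymetrix array, made from the total RNA of its fat pads 4 and 9. The sources used here do not say how the Pxmp2 allele was made. The question of the study was whether Pxmp2 is needed for the growth of mammary epithelium.

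PRC1 is a chromatin complex that attaches ubiquitin to histone H2A and helps to keep developmental genes silent. Its catalytic core is RING1 or RNF2 paired with a single PCGF protein, and the choice of PCGF protein decides the type of complex. Complexes with PCGF2 or BMI1 can take up a CBX protein, which reads the methyl mark placed on histone H3 by the second Polycomb complex, PRC2, and these are called canonical. Variant complexes carry RYBP or its relative YAF2 in place of a CBX protein, and PCGF1, PCGF3, PCGF5 and PCGF6 occur in these. PCGF3 and PCGF5 are close relatives. Polycomb complexes are commonly found at promoters rich in CG dinucleotides, the Hox gene clusters among them.

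RefSeq lists 3 start sites for Pcgf5 on chromosome 19 (build GRCm38.p6). The windows from 250 bases before to 50 bases after each start are shown because CG content differed sharply between the starts. Capitals mark CG dinucleotides.
Pcgf5 start 1, chr19:36348079-36348378, plus strand: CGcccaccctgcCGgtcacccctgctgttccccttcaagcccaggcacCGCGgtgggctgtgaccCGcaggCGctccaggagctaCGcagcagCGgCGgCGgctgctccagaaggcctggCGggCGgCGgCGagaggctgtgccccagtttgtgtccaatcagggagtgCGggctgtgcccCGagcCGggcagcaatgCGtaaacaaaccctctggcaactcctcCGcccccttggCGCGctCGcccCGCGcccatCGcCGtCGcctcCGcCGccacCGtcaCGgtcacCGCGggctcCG
Pcgf5 start 2, chr19:36378817-36379116, plus strand: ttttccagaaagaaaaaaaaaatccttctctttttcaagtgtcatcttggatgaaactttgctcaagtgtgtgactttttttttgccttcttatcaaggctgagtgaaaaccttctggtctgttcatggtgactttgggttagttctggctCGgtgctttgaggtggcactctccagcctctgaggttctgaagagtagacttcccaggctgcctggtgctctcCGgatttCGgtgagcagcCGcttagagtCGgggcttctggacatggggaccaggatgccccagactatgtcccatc
Pcgf5 start 3, chr19:36409498-36409797, plus strand: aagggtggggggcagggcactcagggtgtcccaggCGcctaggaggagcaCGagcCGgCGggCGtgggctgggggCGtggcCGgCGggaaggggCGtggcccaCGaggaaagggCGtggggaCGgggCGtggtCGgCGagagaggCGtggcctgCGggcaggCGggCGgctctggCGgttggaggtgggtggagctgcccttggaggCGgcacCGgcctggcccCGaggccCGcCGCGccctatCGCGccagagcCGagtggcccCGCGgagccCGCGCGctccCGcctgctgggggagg
The first and the third window hold 34 and 35 CG dinucleotides, and the middle one holds 5. Among 32851 windows of the same length, the median is 7, and 7.73% hold 34 or more and 6.95% hold 35 or more. The sources used here do not say which transcripts each probe set reads, so no window was tied to a probe set. The table held windows for 8 of the 10 genes, 10 windows in all, and Pcgf1 and Rybp were not among them. Of the 10 windows, 8 lay above the upper quartile of 20 CG dinucleotides, led by Ring1 with 37. The exceptions were the middle window of Pcgf5 and that of Pcgf2, which holds 10. Since the mice received estradiol, the letters of the full estrogen response element, GGTCANNNTGACC, were searched on both strands. None of the 10 windows held it, and 0.070% of all windows did. The shorter letters GGTCA, on either strand, were in 5 of the 10 windows and in 40.5% of all windows. The first window of Pcgf5 and that of Pcgf3 held 3 matches each, and that of Cbx7 held 2.

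Array medians lay between 98.5 and 105 arbitrary units, and precision is limited throughout by the number of arrays. Upper quartiles were 455 to 469 in WT and 429 to 448 in Pxmp2-/- arrays, so each Pxmp2-/- array was lower there. Pxmp2 read 2465 to 2797 in WT and 260 to 308 in Pxmp2-/- mice, so each array matched its label. The first principal component (40.4% of the variance) separated the genotypes, at -26.8 to -13.3 in WT and 3.49 to 28.4 in Pxmp2-/- arrays. On the second (18.5% of the variance) Pxmp2-/- 1 stood at 26.7, apart from the other arrays at -15.7 to 6.61. Values without Pxmp2-/- 1 are given where it matters. The adipocyte genes Adipoq and Fabp4 were among the brightest, at means of 16119 and 21610 in WT mice. Of 6 epithelial markers only Cdh1 passed the filter on low values, and Epcam, Krt8, Krt18, Krt14 and Krt5 did not. Differences below are Pxmp2-/- minus WT on the scale log2(intensity + 16), which understates the change of dim probe sets. Their errors are the moderated standard errors (SE) of limma over 3 mice a group. The test used for genes outside the 10 was limma's, over the 27022 probe sets whose mean log2 level exceeded the 40th percentile, at an adjusted p under 0.05.

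Pcgf5 gave 3 different readings. The bright probe set 1434666_at read 1440, 1318 and 1477 in WT mice 1 to 3, and 737, 458 and 517 in Pxmp2-/- mice 1 to 3. The groups were far apart, and Pxmp2-/- 1 was the nearest to WT. The means were 1412 ± 83.1 and 571 ± 147 (SD, n = 3 each). On the log2 scale the difference was -1.31 ± 0.17 (SE), or 2.48-fold lower. Of the 27022 probe sets tested, 11 had a more negative difference, that of Pxmp2 among them. Leaving out Pxmp2-/- 1 gave -1.50, and leaving out any other single mouse gave -1.17 to -1.36.

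The second probe set of Pcgf5, 1429564_at, read 509, 479 and 438 in WT and 634, 534 and 504 in Pxmp2-/- mice. Here the Pxmp2-/- mice were the higher ones, although WT 1 read above Pxmp2-/- 3. The means of 476 ± 35.6 and 558 ± 68.1 (SD, n = 3 each) differed by 0.22 ± 0.11 (SE) on the log2 scale, and by 0.13 without Pxmp2-/- 1. The third, 1453636_at, read 168, 127 and 160 in WT and 153, 177 and 153 in Pxmp2-/- mice. Its groups overlapped, with a difference of 0.08 ± 0.12 (SE) that turned to -0.03 without WT 2. The lower reading of 1434666_at was not shared by the other 2 probe sets of the gene, and which transcripts each one reads was not tested.

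**Figure D1:**
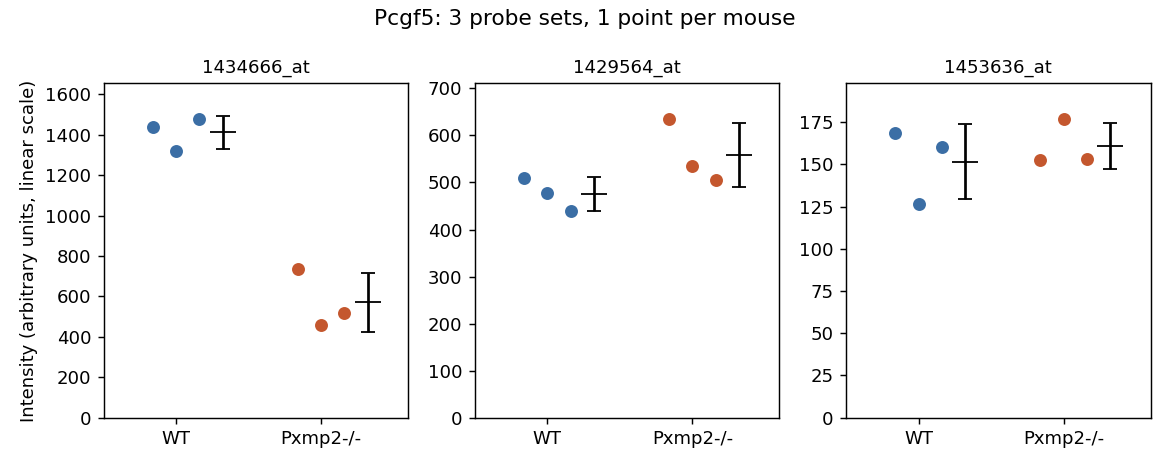
Intensity (linear scale, each panel with its own axis from 0) of the 3 Pcgf5 probe sets, 1 point per mouse, with the mean and SD of 3 mice beside the points. The Pxmp2-/- mice sit at 458 to 737 in 1434666_at, against 1318 to 1477 in WT, and are level with or above WT in the other panels.

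Pcgf3, the closest relative of Pcgf5, was slightly lower. Its single tested probe set, 1428423_at, read 1118, 1061 and 1107 in WT and 1045, 938 and 854 in Pxmp2-/- mice. The groups did not overlap, though WT 2 and Pxmp2-/- 1 were almost level. The difference was -0.21 ± 0.10 (SE), and it was -0.14 after quantile normalization and from -0.29 to -0.14 when single mice were left out. A dim probe set below the filter, 1428424_at, went the other way, with 40.2, 36.3 and 44.6 in WT and 62.2, 53.3 and 67.1 in Pxmp2-/- mice. Its groups did not overlap either, at a log2 difference of 0.45. The third, 1440203_at, was also below the filter and overlapped (-0.27).

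Pcgf3 lies on chromosome 5, as does Pxmp2, with 34 protein-coding genes between them in the order of the RefSeq table. Of these, 13 were tested by their brightest probe set, and the groups did not overlap in 7, 5 lower and 2 higher, where 22.6% of all genes did not overlap. The zinc finger gene Zfp932 passed the test (-1.08, limma adjusted p = 0.0249) and the other 12 did not. The part of this chromosomal position in the readings of Pcgf3 was not tested. Cplx1, a synaptic vesicle gene next to Pcgf3, read 287, 250 and 293 in WT and 314, 405 and 313 in Pxmp2-/- mice in its tested probe set (0.29 ± 0.12 SE, limma adjusted p = 0.294). The genes beside Pcgf5 on chromosome 19, Ankrd1 and Hectd2, were below the filter in all their probe sets and lay between -0.39 and 0.25.

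Of the other PCGF genes of variant complexes, neither stood apart by genotype. Pcgf1, whose product joins KDM2B and BCOR, was dim, at 70.0, 95.0 and 70.5 in WT and 73.2, 51.8 and 83.7 in Pxmp2-/- mice. The values were mixed, at -0.15 ± 0.17 (SE), and turned to 0.01 without Pxmp2-/- 2. Pcgf6, found in complexes with MGA and L3MBTL2, read 426, 373 and 413 in WT and 438, 359 and 390 in Pxmp2-/- mice in 1424081_at. Its differences were -0.03 ± 0.10 and 0.01 ± 0.10 (SE) in the 2 tested probe sets, and both changed sign among the alternative settings. Its remaining probe set, 1454120_a_at, was below the filter at 30.0 to 53.5 units, with overlapping groups (0.11).

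The PCGF genes of canonical complexes did not follow 1434666_at. Bmi1, a repressor of the Cdkn2a locus, read 1628, 1484 and 1577 in WT and 1587, 1727 and 1660 in Pxmp2-/- mice in 1417493_at. In its other probe set, 1448733_at, it read 1295, 1018 and 1157 against 1151, 1031 and 1105. Both overlapped, at 0.08 ± 0.08 and -0.07 ± 0.11 (SE). Pcgf2, the nearest relative of Bmi1, was dim, at 78.5, 89.0 and 92.0 in WT and 65.7, 74.7 and 82.9 in Pxmp2-/- mice (1420645_at). This was lower on average with 1 overlapping reading, at -0.18 ± 0.10 (SE), and -0.11 without Pxmp2-/- 1. Its other probe set, 1456330_at, was below the filter and leaned the other way, with 15.5, 38.1 and 28.3 in WT and 38.7, 34.2 and 30.6 in Pxmp2-/- mice, overlapping at a log2 difference of 0.25.

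The genes of the catalytic core were level within their spread. Ring1 read 572, 559 and 612 in WT and 537, 504 and 596 in Pxmp2-/- mice, at -0.09 ± 0.09 (SE). Rnf2, which makes the main ubiquitin ligase of the complex in many cells, read 1511, 1486 and 1639 in WT and 1544, 1586 and 1296 in Pxmp2-/- mice in 1424873_at. Pxmp2-/- 3 was the low one here, and without it the difference of -0.07 ± 0.10 (SE) became 0.02. In 1451519_at, Rnf2 read 1005, 936 and 1085 against 1019, 1119 and 964 (0.04 ± 0.10 SE). Its other 3 probe sets were below the filter, at 1 to 47.0 units.

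Cbx7 encodes a reader of methylated histone H3 in canonical complexes. It had the single tested probe set of the 10 genes that was higher in Pxmp2-/- mice without overlap. This probe set, 1433557_at, read 360, 334 and 321 in WT and 425, 400 and 368 in Pxmp2-/- mice. The lowest Pxmp2-/- mouse was just above the highest WT mouse, at a difference of 0.22 ± 0.09 (SE) that ranged from 0.17 to 0.27 without single mice. In 1449713_at the readings of 90.0, 114 and 104 in WT and 104, 94.5 and 99.8 in Pxmp2-/- mice overlapped (-0.04 ± 0.10 SE). The third Cbx7 probe set was below the filter, at 8.68 to 28.4 units.

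Of the 23 probe sets, 15 passed the filter, and every one of the 9 genes had at least 1 among them. Over the whole array 17 of the 27022 probe sets (0.0629%) passed the adjusted threshold of limma. Since the genes were chosen on this comparison, the counts that follow are descriptions and nothing is read from them. The groups did not overlap in 2 of 15 in the lower direction (15.1% of all tested) and in 1 of 15 in the higher direction (7.73% of all). The median difference of the 15 was -0.04, against -0.03 over all 27022, and without 1434666_at the other 14 lay between -0.21 and 0.22. A difference beyond 0.5 on the log2 scale was seen in 1 of the 15, and in 3.86% of all. Of the 8 probe sets below the filter, 1428424_at of Pcgf3 alone did not overlap.

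**Figure D2:**
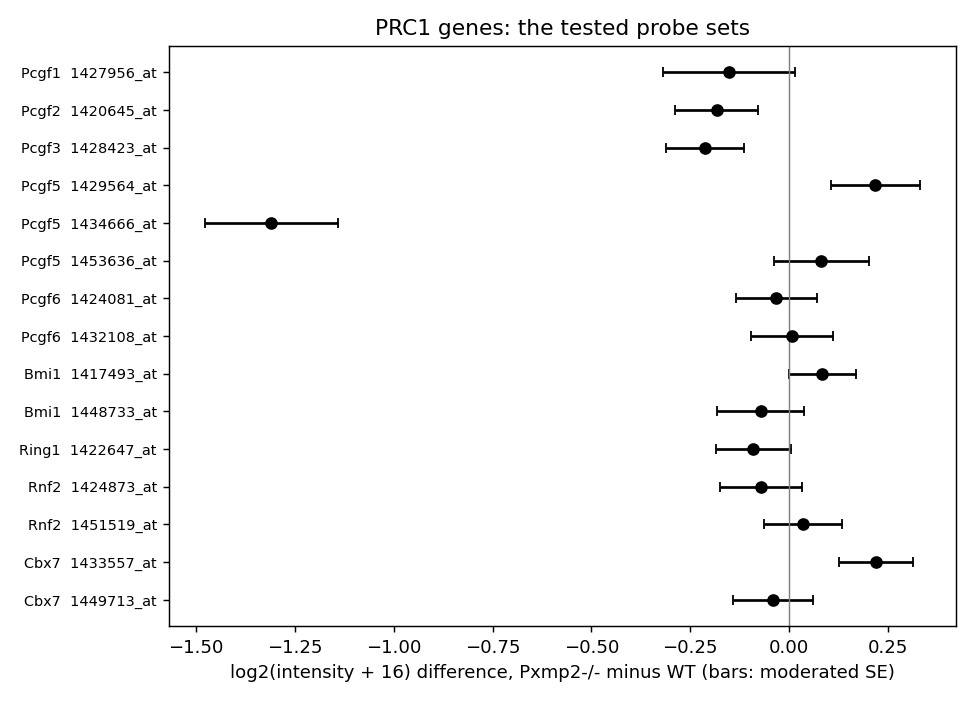
Log2 difference, Pxmp2-/- minus WT, of the 15 tested probe sets of PRC1 genes; points are differences of means over 3 mice a group and bars the moderated SE. All but 1434666_at of Pcgf5 (-1.31) lie between -0.21 and 0.22.

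Partners of the complex outside the 10 genes were read by the brightest tested probe set of each gene. Over all 12775 genes read this way, 5 (0.0391%) passed the adjusted threshold, 14.2% had an unadjusted p under 0.05, 58.3% had a difference below 0 and the median was -0.03. Of 9 further genes of canonical complexes 7 were tested and none passed limma's adjusted threshold, with 3 at an unadjusted p under 0.05. These were Cbx6 at -0.25 ± 0.09, the polyhomeotic gene Phc3 at -0.28 ± 0.10 and Cbx2 at -0.24 ± 0.10 (SE), with limma adjusted p of 0.247, 0.251 and 0.297. Cbx6 read 608, 631 and 622 in WT and 560, 481 and 516 in Pxmp2-/- mice, and its other tested probe set differed by -0.33. All 3 genes had groups that did not overlap, each lower in Pxmp2-/- mice, where 15.1% of all genes did so in that direction. The median of the 7 was -0.11, and -0.08 after quantile normalization.

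Partners of variant complexes were spread around the median of all genes. Of 22 genes 21 were tested, none passed limma's adjusted threshold and none had an unadjusted p under 0.05, with a median of -0.02. The groups did not overlap in 3 of 21 (Mga, Csnk2a2 and Kdm2b), all lower, where 15.1% of all genes did so in that direction. The smallest p belonged to Mga, a scaffold of PCGF6 complexes, at -0.21 ± 0.09 (SE, limma adjusted p = 0.302), Bcorl1, a partner of PCGF1, at 0.18 ± 0.10, and the ubiquitin protease gene Usp7 at -0.17 ± 0.10. Auts2, which joins PCGF3 and PCGF5 complexes, read 286, 300 and 244 in WT and 383, 251 and 236 in Pxmp2-/- mice. These values overlapped, with Pxmp2-/- 1 the highest (0.04 ± 0.18 SE). The kinase subunit gene Csnk2a2, of the same complexes, differed by -0.19 and its relative Csnk2a1 by -0.01. Yaf2, which can stand in for Rybp, differed by 0.03, and Kdm2b, which recruits PCGF1 complexes to CG-rich DNA, by -0.11.

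PRC2, which places the histone H3 mark, gave no calls, and neither did the enzymes that remove ubiquitin from H2A, listed with their ASXL cofactors. Of 11 tested PRC2 genes none passed limma's adjusted threshold and 1 had an unadjusted p under 0.05. It was Jarid2, a cofactor of PRC2 that also binds ubiquitinated H2A, which read 1323, 1186 and 1260 in WT and 1072, 1026 and 943 in Pxmp2-/- mice (-0.31 ± 0.09 SE, limma adjusted p = 0.216). Its groups did not overlap in this probe set, but 2 others differed by -0.12 and 0.03. Mtf2 followed at -0.21 ± 0.12 and Phf1 at -0.17 ± 0.12 (SE), and Mtf2 had 4 further probe sets between -0.30 and 0.14. Of these, 1418515_at (-0.30, limma adjusted p = 0.209) and 1418514_at (-0.26, limma adjusted p = 0.264) were lower without overlap. Their unadjusted limma p was 0.0082 and 0.032, and the rest overlapped. The methyltransferase genes Ezh2 and Ezh1 differed by 0.05 and -0.02. Of 8 tested genes of H2A deubiquitinases and their cofactors none passed limma's adjusted threshold or had an unadjusted p under 0.05. Mysm1 stood at -0.20 ± 0.09, Bap1 at -0.16 ± 0.10 and the cofactor gene Asxl2 at -0.14 ± 0.13 (SE). The probe sets of Asxl2 disagreed in size, since a dimmer one, 1458366_at, differed by -0.61 with groups that did not overlap (limma adjusted p = 0.183) and another by -0.08, while the brightest gave -0.02 without WT 3. The medians of the PRC2 list and of the deubiquitinase and cofactor list were -0.05 and -0.06, with 9 of 11 and 7 of 8 genes below 0. After quantile normalization these medians were 0.0009 and -0.02, with 5 of 11 and 4 of 8 below 0, where the median of all genes was 0.003.

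Hox genes, classical targets of Polycomb silencing, tended to lower values in Pxmp2-/- mice, and none passed the test. Of 41 genes in this list, which also held Cdkn2a and Cdkn2b, 23 were tested. Differences were below 0 in 20 of 23, against 58.3% of all genes, and the median was -0.17, against -0.03. None passed limma's adjusted threshold, while 5 of 23 had an unadjusted p under 0.05 (14.2% of all genes). The groups did not overlap in 9 of 23, all lower (15.1% of all genes in that direction, and 7.5% in the other). After quantile normalization the median was -0.13 with 18 of 23 below 0, and without single mice it ranged from -0.19 to -0.12 with 19 to 21 below 0. Neighbouring Hox genes share control regions, so their values are not independent of each other.

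Hoxb5 had the smallest p of the list. It read 139, 157 and 152 in WT and 93.6, 88.3 and 101 in Pxmp2-/- mice, which kept the groups well apart. The log2 difference was -0.58 ± 0.09 (SE), with a limma adjusted p of 0.117. Hoxc4 read 248, 284 and 270 against 204, 185 and 209 (-0.40 ± 0.09 SE, limma adjusted p = 0.173). Hoxb2 read 314, 337 and 294 against 276, 222 and 239 (-0.34 ± 0.11 SE, limma adjusted p = 0.222). All 3 were lower in each of the 3 Pxmp2-/- mice. On the other side, Hoxb4 differed by 0.16 and Hoxc5 by 0.11, and both overlapped. Cdkn2b, a cell cycle inhibitor gene, read 262, 322 and 228 in WT and 203, 163 and 302 in Pxmp2-/- mice, without separation (-0.29 ± 0.22 SE), and Cdkn2a was below the filter.

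**Figure D3:**
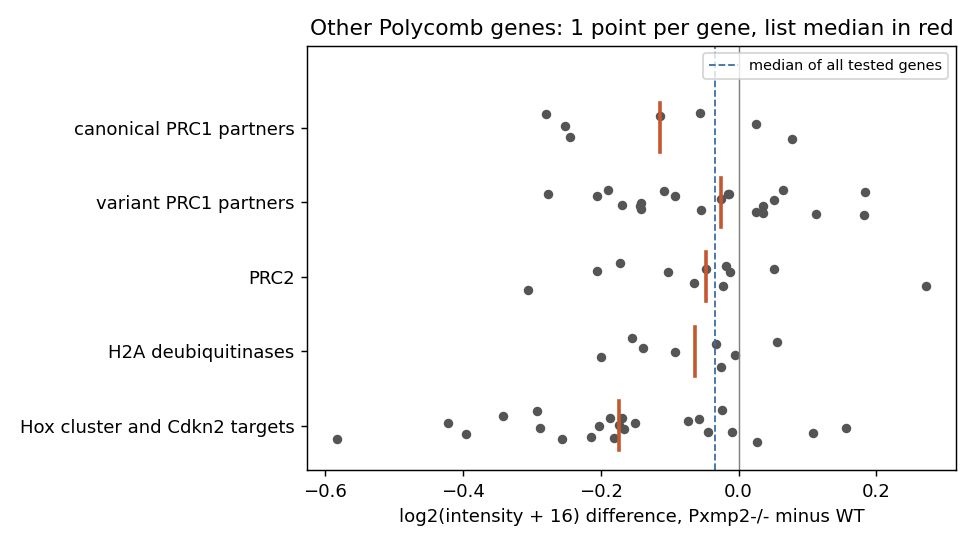
Log2 difference, Pxmp2-/- minus WT, of each tested gene in 5 lists of Polycomb genes outside the 10 (points, spread vertically for legibility), with list medians as red bars and the median of all tested genes as a dashed line. The Hox list has the lowest median, -0.17, and 20 of its 23 points lie below 0.

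Markers of other cells of the pad were set beside these values. The summed intensity of 6 fibroblast markers was 42473 to 51541 in WT and 34267 to 42757 in Pxmp2-/- mice, all 6 markers being below 0, with Pdgfra lowest at -1.25. That of 6 endothelial markers was 15959 to 16940 and 12991 to 14875, 5 of 6 below 0. That of 6 macrophage markers was 6380 to 6632 and 7481 to 9210, 4 of 6 above 0. The 5 adipocyte markers summed to 55899 to 59447 and 55570 to 58543. The epithelial gene Cdh1 read 117, 39.8 and 40.8 in WT and 199.5, 105 and 116 in Pxmp2-/- mice, at a log2 difference of 1.01 ± 0.36 (SE, limma adjusted p = 0.252), with WT 1 level with Pxmp2-/- 3. Lymphocyte and muscle markers had 2 tested genes each, and their groups overlapped. The groups did not overlap in 4 of 6 endothelial and 2 of 6 fibroblast markers, all lower (15.1% of all genes in that direction). They did not overlap in 3 of 6 macrophage markers either, all higher (7.5% of all genes). Of the 28 markers tested, none was listed at 0 and none passed limma's adjusted threshold. An unadjusted p under 0.05 was seen in 12 of the 28, against 14.2% of all genes. The macrophage gene Lyz2 (0.85, limma adjusted p = 0.0589) did pass with quantile normalization, median centring, a pseudocount of 64, the 60th percentile filter, a mean-variance trend or array weights. Their part in the values of Pcgf5 and of the Hox genes was not tested, and fewer cells of a type and less RNA per cell cannot be told apart in such whole-tissue samples.

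The 5 genes whose pattern over the 6 arrays was most like that of 1434666_at were found by the root mean square difference of centred log2 levels among tested probe sets with 1 symbol. They were Fst (0.15), which encodes the activin-binding protein follistatin, the membrane skeleton gene Epb41l2 (0.18), the sterol synthesis gene Hmgcs1 (0.22), the immunoglobulin joining chain gene Jchain (0.23) and the steroid dehydrogenase gene Akr1c14 (0.25). The probe set of Fst read 551, 489 and 478 in WT and 241, 187 and 214 in Pxmp2-/- mice, with Pxmp2-/- 1 again the highest of its group. In Hmgcs1, 1441536_at read 357, 437 and 372 against 191, 108 and 90.7. As in Pcgf5, other probe sets of that gene did not follow, since its 4 other tested ones lay between -0.24 and 0.21. Unlike in Pcgf5, these were brighter than the one that fell, with WT means of 1586 to 6726 against 389. The 3 other tested probe sets of Epb41l2 were above 0, at 0.06, 0.38 and 0.62. Their WT means were 3298, 772 and 125, against 361 for the one that fell. The other probe set of Fst was also lower, at -0.87. Jchain lies on chromosome 5, as does Pxmp2, and the part of that position in its values was not tested. All 6 probe sets separate the genotypes, which is how 1434666_at was chosen.

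**Figure D4:**
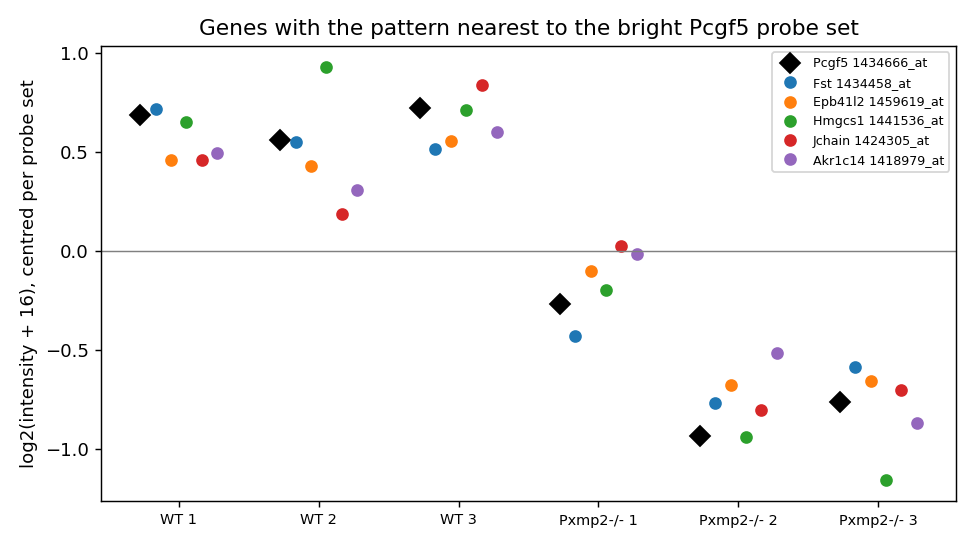
Centred log2(intensity + 16) in each of the 6 mice for 1434666_at of Pcgf5 (diamonds) and the 5 genes nearest to it (circles). In all 6 probe sets the WT mice are the high ones, and Pxmp2-/- 1 is the highest Pxmp2-/- mouse.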

How the data were processed

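The authors deposited intensities on a linear scale for 45037 probe sets on 6 Affymetrix arrays, per the labels from biotin-labelled total RNA. Probe summarisation, scaling and genome build are not given in the sources used here. Genotypes came from the labels and replicate numbers from sample titles. There were 0 columns of no sample and no identical columns. Platform annotation gave 34945 probe sets 1 symbol, 932 several and 9160 none; updating symbols by Entrez number through RefSeq (GRCm38.p6) changed 0.

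Values were transformed to log2(intensity + 16). Probe sets with a mean above the 40th percentile (6.23, an intensity of 59.1) were tested with limma 3.58.1 in R 4.3.3 (lmFit, eBayes, two-sided, Benjamini-Hochberg over 27022). The procedure was also run on simulated data with independent noise, which cannot show how it handles shifts shared by a whole array. The brightest tested probe set stood for a gene in lists. The 23 probe sets are described, those below the filter by values or ranges. Other genes named are, per list, those past the threshold and the 3 with the smallest p, further partners chosen after their values were seen, chromosomal neighbours and the 5 most alike. The 10 genes and lists were chosen with earlier results of these data known. Same-numbered arrays correlated at 0.02, 0.04 and -0.12 in their deviations, so numbers were not taken to pair mice. Alternatives were scaling, pseudocount, filter, variance model, replicate block, probe set choice and leaving out each mouse. Plots used matplotlib 3.10.9.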

Additional observations from a re-analysis of the deposited data

How the results depend on the processing

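The count of 17 probe sets past the threshold was within 1.5 times under quantile normalization, median centring, pseudocounts of 1 and 64, the 60th percentile filter and removal of _x_at and _s_at probe sets. It was 1 with no level filter, 34 with a mean-variance trend, 26 with array weights, 5 with the brightest probe set per gene, and 1 with the replicate number as a block. Without single mice it ranged from 1 to 33. The cause was not tested, beyond the different numbers of probe sets and samples. The difference of 1434666_at of Pcgf5 stayed between -1.50 and -1.17 in all of these settings. The filters, the mean-variance trend, the replicate block and the choice of probe sets leave a single probe set's difference unchanged by construction. Only scaling, pseudocounts, array weights and leaving out mice could move it, here and for the single genes below. The median of the tested probe sets of the 10 genes lay between -0.09 and 0.01, the positive value being without WT 1. For the other probe sets of the 10 genes, 336 values under another setting were compared, those that could not move included. Of these, 334 moved by less than 1 SD between mice, and 21 changed sign. The exceptions were those of the dim 1428424_at of Pcgf3, at 0.58 with a pseudocount of 1 and 0.26 with 64. The 15 genes of the Polycomb lists named for their small p neither changed sign nor passed in any setting, and other list genes were not followed singly. The number of arrays, 3 a group, limits what can be called.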
